A study of Arabidopsis thaliana with 6 samples.

Results

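The PHYTOCHROME-INTERACTING FACTOR (PIF) family was followed in whole seedlings of Arabidopsis thaliana in which the clock genes TOC1 and PRR5 were mutated. Its 7 members, PIF1 (AT2G20180), PIF3 (AT1G09530), PIF4 (AT2G43010), PIF5 (AT3G59060), PIF6 (AT3G62090), PIF7 (AT5G61270) and PIF8 (AT4G00050), were taken by locus from the 33602 genes of the files. The toc1-21 prr5-1 double mutant (3 libraries) was set against the Col-0 accession, the wild type (3 libraries). Seedlings of both genotypes were 10 days old, had been kept in long days (LD) at 22 ºC, with 3% sucrose in the MS medium, and were sampled at ZT15, a zeitgeber time counted in hours from lights on. The title of the series names PIF4 and PIF5 as genes that the pseudo-response regulators, the family of TOC1 and PRR5, repress during photoperiodic hypocotyl growth.

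PIFs are basic helix-loop-helix (bHLH) transcription factors that bind the G-box and related E-box motifs in promoters. In light, active phytochromes bind PIF proteins, which are then phosphorylated and for the most part degraded, so that several PIFs act mainly in darkness or shade and promote hypocotyl elongation. The evening complex of the clock (ELF3, ELF4 and LUX) and the pseudo-response regulators are known repressors of PIF4 and PIF5 transcription, and PIF protein levels cannot be read from RNA.

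Expression is given as RPKM, the reads of a gene divided by its length and by the size of the library, so levels can be compared between genes. The libraries rest on 14617043 to 26792712 reads. TOC1 stood at 16.8 ± 1.91 RPKM in toc1-21 prr5-1 and 33.6 ± 1.49 RPKM in Col-0 (SD, n = 3 each), and PRR5 at 1.12 ± 0.216 and 2.94 ± 0.0664 RPKM, so both mutated genes were lower in the double mutant and neither was at 0. Mesophyll, root hair and guard cell markers were present in all 6 libraries. Between the genotypes limma called 0 of their 16 tested genes, 1 had an unadjusted p under 0.05, and limma-voom called 1. Their median log2 fold change, toc1-21 prr5-1 over Col-0, was 0.40 for root hair, -0.29 for guard cell and -0.20 for mesophyll markers. Over all tested genes it was -0.01. The root hair markers summed to 25.2 to 63.4 RPKM in Col-0 and to 56.0 to 83.5 RPKM in toc1-21 prr5-1. Each of them had its lowest value in Col-0 replicate 3. The part of such differences in the PIF levels was not tested. The design text speaks of biological replicates without saying how their plants were kept separate. Each p-value weighs the difference between the genotypes against the spread among the libraries of a genotype. How far that spread is technical is not known. In whole seedlings, fewer cells of a type and less RNA per cell cannot be told apart.

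All 7 members passed the filter of 1 RPKM in at least 3 libraries, and 3 of 7 differed between the genotypes. PIF4 and PIF5 rose in toc1-21 prr5-1, PIF7 fell, and PIF1, PIF3, PIF6 and PIF8 did not pass the test. A gene was called at an adjusted p under 0.05 from limma on log2(RPKM + 1), with Benjamini-Hochberg adjustment over 19710 tested genes. Of all tested genes, 10.6% were called, 3.90% as higher and 6.65% as lower in toc1-21 prr5-1. The values of the genotypes did not overlap for 6 of 7 members, 3 with toc1-21 prr5-1 above and 3 with it below. Over all tested genes this held for 27.0%, 11.6% with toc1-21 prr5-1 above and 15.4% with it below. The median log2 fold change over the 7 members was 0.06, against -0.01 over all tested genes, with members on both sides of 0. With limma-voom on reads recovered from the RPKM, 5 of 7 members passed, 3 higher and 2 lower, where 11.3% of all genes did; PIF1 and PIF3 were the members added.

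**Figure D1:**
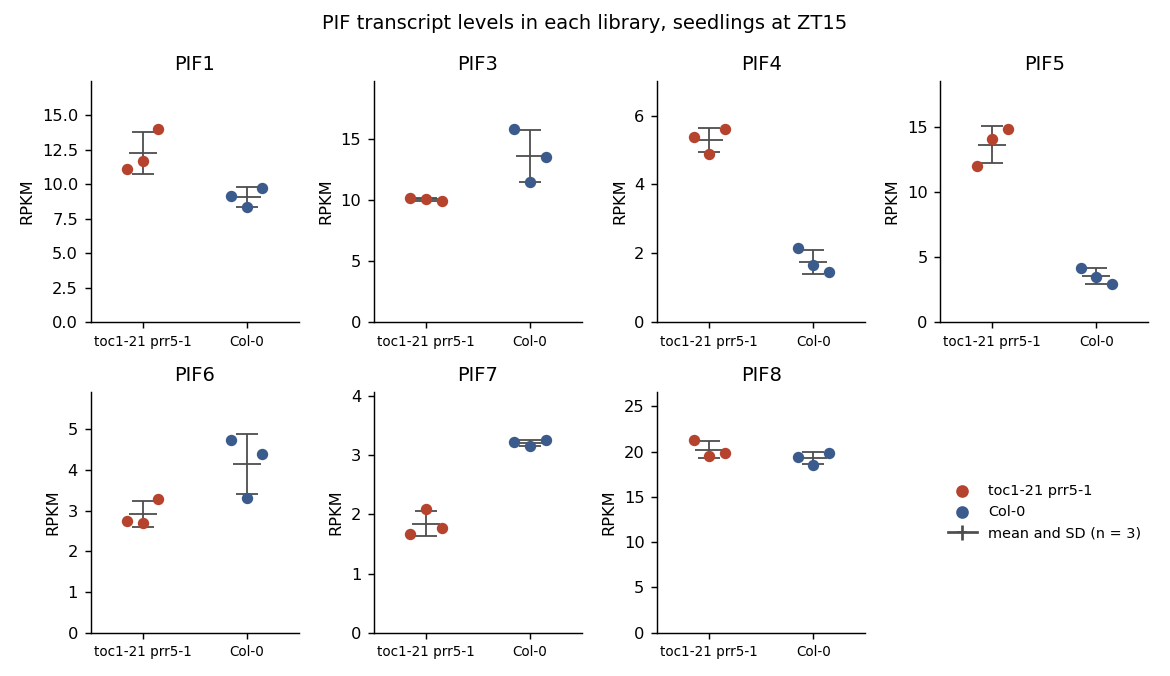
RPKM of each PIF gene, 1 panel a gene with its axis from 0, in the 3 toc1-21 prr5-1 libraries (left) and the 3 Col-0 libraries (right); points are libraries and bars are the mean and SD (n = 3). The toc1-21 prr5-1 points of PIF4 and PIF5 lie above all Col-0 points, those of PIF7 lie below them, and only the points of PIF8 overlap.

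PIF4 and PIF5 drive hypocotyl elongation, PIF4 also at warm temperature, and the deposited gene annotation gives both, and no other member, the terms for regulation of auxin biosynthesis and of auxin signalling. PIF5 had 12.0, 14.1 and 14.8 RPKM in toc1-21 prr5-1 replicates 1 to 3, against 4.19, 3.48 and 2.91 RPKM in Col-0 replicates 1 to 3. Every double-mutant library was above every wild-type library, and the lowest of them was 12.0 RPKM where the highest wild-type one was 4.19 RPKM. PIF5 averaged 13.6 ± 1.44 RPKM in toc1-21 prr5-1 and 3.53 ± 0.639 RPKM in Col-0 (SD, n = 3 each), a ratio of 3.86. It rose by 1.70 on the log2(RPKM + 1) scale (SE 0.137, 95% interval 1.39 to 2.0, limma adjusted p = 3.46e-05).

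PIF4 had 5.36, 4.90 and 5.60 RPKM in toc1-21 prr5-1 replicates 1 to 3, against 2.15, 1.66 and 1.47 RPKM in Col-0 replicates 1 to 3. The genotypes did not overlap. PIF4 averaged 5.29 ± 0.359 RPKM in toc1-21 prr5-1 and 1.76 ± 0.351 RPKM in Col-0 (SD, n = 3 each), a ratio of 3.01, and rose by 1.20 on the log2(RPKM + 1) scale (SE 0.143, 95% interval 0.88 to 1.52, limma adjusted p = 0.000468). These values rest on 195, 230 and 196 reads in toc1-21 prr5-1 and on 55, 47 and 57 reads in Col-0. Among the 19710 tested genes, 41 called genes (0.208%) had a log2 fold change at least that of PIF5, and 102 (0.518%) at least that of PIF4. The log2 fold changes depend on the pseudocount: with 5 in place of 1 they were 1.13 for PIF5 and 0.61 for PIF4, and limma-voom gave 1.99 and 1.62, with both calls kept.

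The promoters of PIF4, PIF5 and PIF7, the called members, are printed, although a factor that acts on transcription may also bind outside these windows. The printed windows are the 300 bases before the annotated start of the gene. They are read 5′ to 3′ on the strand of the gene from the RefSeq TAIR10.1 genome. Capitals mark the G-box CACGTG, which is its own reverse complement. The PIF5 window lies at chr3:21830838-21831137 on the minus strand, the PIF4 window at chr2:17885801-17886100 on the plus strand and the PIF7 window at chr5:24640766-24641065 on the minus strand.
PIF5 promoter: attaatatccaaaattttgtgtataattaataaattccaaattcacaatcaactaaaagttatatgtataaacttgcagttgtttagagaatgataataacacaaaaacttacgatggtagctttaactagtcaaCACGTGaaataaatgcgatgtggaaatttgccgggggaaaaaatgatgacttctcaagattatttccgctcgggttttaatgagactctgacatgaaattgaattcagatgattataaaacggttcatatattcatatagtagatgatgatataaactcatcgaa
PIF4 promoter: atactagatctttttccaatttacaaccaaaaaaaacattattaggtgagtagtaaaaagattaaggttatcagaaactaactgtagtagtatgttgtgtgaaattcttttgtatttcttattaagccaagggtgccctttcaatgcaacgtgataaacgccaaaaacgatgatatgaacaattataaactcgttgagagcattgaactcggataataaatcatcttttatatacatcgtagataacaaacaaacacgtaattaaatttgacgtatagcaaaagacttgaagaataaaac
PIF7 promoter: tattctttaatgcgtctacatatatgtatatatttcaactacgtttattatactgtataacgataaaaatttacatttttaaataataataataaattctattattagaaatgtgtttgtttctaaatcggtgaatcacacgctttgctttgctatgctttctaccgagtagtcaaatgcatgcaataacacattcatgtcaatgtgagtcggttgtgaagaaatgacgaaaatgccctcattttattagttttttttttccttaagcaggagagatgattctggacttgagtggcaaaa

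Of the 3 windows shown, that of PIF5 held a G-box, at 165 to 160 bases before the start, while those of PIF4 and PIF7 held none. A G-box occurs in 7.09% of all 27443 promoters of this length and in 14.8% of those of 1000 bases. Within 1000 bases PIF4 and PIF7 also had no G-box, but each had a CACATG or its reverse complement CATGTG, an E-box that PIFs can bind, at 507 to 502 bases before the start of PIF4 and at 878 to 873 bases before that of PIF7. This motif is common, with 37.7% of promoters of 1000 bases holding it.

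PIF6, which did not pass the test, had 3 G-boxes in its 1000 bases, the most of any member. They are shown with 10 bases on either side, from chr3:22991352-22991377, chr3:22991341-22991366 and chr3:22991180-22991205 on the minus strand of TAIR10.1, with the G-box in capitals. The first and the second of these windows share bases.
PIF6 site 658 to 653 bases before the start: tacattgaatCACGTGgctttcacgt
PIF6 site 647 to 642 bases before the start: acgtggctttCACGTGaacttcacgc
PIF6 site 486 to 481 bases before the start: ttcccacaacCACGTGggctttttgg

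Motifs of clock factors were searched in the same 1000 bases on both strands. The evening element AAATATCT (reverse complement AGATATTT), bound by morning MYB factors of the clock, was found at 376 to 369 bases before the start of PIF6, and at 819 to 812 and at 415 to 408 bases before that of PIF7. It occurs in 15.3% of all promoters of this length. AAAAATCT (reverse complement AGATTTTT), to which CCA1 binds, was found at 391 to 384 bases before the start of PIF3 and at 210 to 203 bases before that of PIF6, against 21.1% of all promoters. GATACG (reverse complement CGTATC), to which LUX binds, was in none of the 7 windows, against 16.9% of all promoters. Only these exact letters were searched for LUX, so variants of its site, such as GATTCG, were not counted. No hit overlapped a hit of another motif, and none of the searched motifs was found before PIF1 or PIF8. These matches describe letters in the windows and say nothing of binding.

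PIF5 was also higher relative to PIF4. The ratio of PIF5 to PIF4 was 2.24, 2.87 and 2.64 in toc1-21 prr5-1 and 1.95, 2.10 and 1.99 in Col-0. All 3 double-mutant ratios were above all 3 wild-type ratios, and their means were 2.58 ± 0.319 and 2.01 ± 0.0798 (SD, n = 3 each), a difference of 1.28-fold. An exact two-sided permutation test gave p = 0.1, the smallest that 3 libraries against 3 allow, so a p under 0.05 could not be reached.

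PIF7, a factor of the shade response whose protein is known to be comparatively stable in light, moved the other way. It had 1.67, 2.08 and 1.77 RPKM in toc1-21 prr5-1 replicates 1 to 3, against 3.21, 3.15 and 3.25 RPKM in Col-0 replicates 1 to 3. The wild-type values lay close together, and every double-mutant value was below them. PIF7 averaged 1.84 ± 0.213 RPKM in toc1-21 prr5-1 and 3.20 ± 0.0516 RPKM in Col-0 (SD, n = 3 each), a ratio of 0.575, and fell by 0.57 on the log2(RPKM + 1) scale (SE 0.136, 95% interval -0.87 to -0.26, limma adjusted p = 0.0259). With a pseudocount of 5 the log2 fold change was -0.26, and with limma-voom -0.79, with the call kept in both. The call was not kept in any of the 6 fits that each left out 1 library (adjusted p 0.0525 to 0.110), and the values rest on 51, 82 and 52 reads in toc1-21 prr5-1 and 69, 75 and 106 reads in Col-0.

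PIF7 lies on chromosome 5 at 24638491 to 24640765 on the minus strand of TAIR10.1, 34.2 kb from TOC1, which carries a mutation in this line. Of the 9 tested genes between them, AT5G61290, AT5G61330 and AT5G61340 were lower in toc1-21 prr5-1 and 0 were higher. Of the 50 tested genes nearest to PIF7, with 25 on each side, 6 were called, 1 as higher and 5 as lower, TOC1 among them. That is 12% of these genes, against the 10.6% called over all tested genes. An effect of the clock on PIF7 and one of the chromosome segment that carries toc1-21 cannot be told apart in these data. PIF7 also shares 318 bases with AT5G61260 on the opposite strand, at 0.935 ± 0.449 RPKM in toc1-21 prr5-1 and 1.37 ± 0.284 RPKM in Col-0 (SD, n = 3 each, limma adjusted p = 0.442). The strand setting of the counting is not stated in any source used here, so reads of the shared bases cannot be told apart.

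PIF4 and PIF5 lie on chromosomes without a mutated gene, PIF4 on chromosome 2 at 17886101 to 17889087 on the plus strand and PIF5 on chromosome 3 at 21827905 to 21830837 on the minus strand. The labels do not state the accession in which toc1-21 was isolated. Differences of background between the genotypes on these chromosomes were not tested. Of the 50 tested genes around each, 4 were called around PIF4 (8%) and 3 around PIF5 (6%), all of them higher in toc1-21 prr5-1. Over all tested genes 10.6% were called, 3.90% as higher. The genes called near PIF5 include PAR2, which encodes an inhibitor of PIF proteins. The share called around the other members was 16% for PIF3 (8 of 50), 6% for PIF1 and PIF6 (3 of 50 each) and 10.3% for PIF8 (3 of 29).

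**Figure D2:**
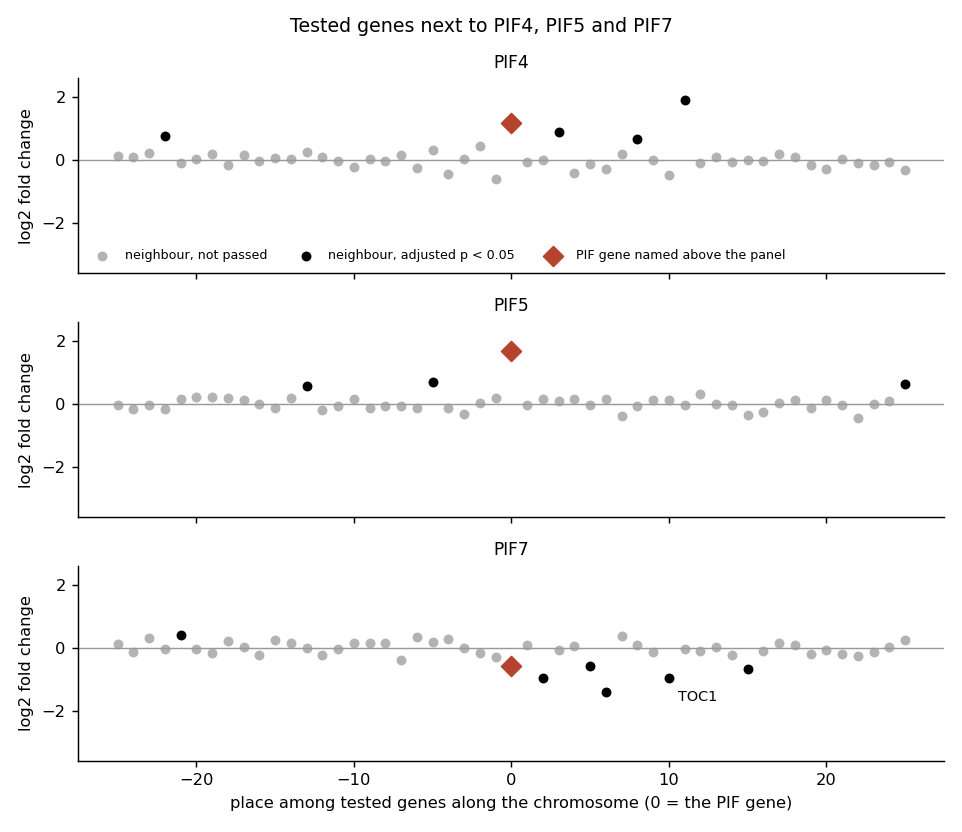
Log2 fold change of RPKM + 1, toc1-21 prr5-1 over Col-0, of the 25 tested genes on each side of PIF4, PIF5 and PIF7 (1 panel each) in gene order along the chromosome, with the PIF gene as a diamond at 0, called neighbours in black and others in grey. PIF5 stands above all its neighbours and PIF4 above all but AT2G43141, while 5 called neighbours of PIF7 lie below 0, TOC1 among them.

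PIF1 and PIF3 lay on opposite sides of 0 and neither passed the test. PIF1 represses seed germination and chlorophyll synthesis. It had 11.1, 11.6 and 14.0 RPKM in toc1-21 prr5-1, against 9.10, 8.31 and 9.73 RPKM in Col-0, and averaged 12.2 ± 1.52 and 9.05 ± 0.712 RPKM (SD, n = 3 each). The double-mutant values were all above the wild-type values, with a log2 fold change of 0.39 (95% interval 0.14 to 0.65, limma adjusted p = 0.0617). With the libraries rescaled by median ratio, or with limma-voom, the gene passed at adjusted p = 0.0489 and 0.0458.

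PIF3, the founding member of the family, acts with PIF1 to hold back greening in darkness. It had 10.1, 10.1 and 9.89 RPKM in toc1-21 prr5-1, against 15.8, 11.5 and 13.5 RPKM in Col-0, and averaged 10.04 ± 0.135 and 13.6 ± 2.15 RPKM (SD, n = 3 each). The double-mutant values lay within a narrow range below all wild-type values, which were spread more widely. The log2 fold change was -0.39 (95% interval -0.66 to -0.12, limma adjusted p = 0.0721), and the gene passed with limma-voom (adjusted p = 0.0417) and without Col-0 replicate 2 (adjusted p = 0.0194). The ratio of PIF1 to PIF3 was 1.10, 1.15 and 1.41 in toc1-21 prr5-1 and 0.577, 0.724 and 0.720 in Col-0, so PIF1 exceeded PIF3 in every double-mutant library and in no wild-type library.

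PIF6 is known from developing seeds, where it acts on dormancy. It had 2.75, 2.71 and 3.28 RPKM in toc1-21 prr5-1, against 4.74, 3.32 and 4.40 RPKM in Col-0, and averaged 2.91 ± 0.316 and 4.15 ± 0.742 RPKM (SD, n = 3 each). The highest double-mutant value, 3.28 RPKM, was just below the lowest wild-type value, 3.32 RPKM. The log2 fold change was -0.39 (95% interval -0.73 to -0.05) with a limma adjusted p of 0.154.

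Seed storage protein and oleosin genes, whose RNA marks seed tissue, had a summed level of 327.2 to 393.5 RPKM in toc1-21 prr5-1 and 694.8 to 822.6 RPKM in Col-0. Of 8 tested genes, CRA1, CRC, OLE1 and OLE2 were called lower, and CRB, SESA1, SESA2 and SESA3 did not pass. The share called was 50%, against 10.6% over all tested genes. Col-0 replicate 1 stood apart from the other Col-0 libraries: CRB, SESA1 and SESA3 were lower there than in every toc1-21 prr5-1 library, and SESA4, the untested gene of the 9 on that list, was listed at 0. Without that library PIF1 and PIF6 again did not pass, at adjusted p = 0.157 and 0.429. The part of these transcripts in the level of PIF1 and PIF6 was not tested. PIF6 also shares 231 bases with AT3G62080 on the opposite strand, which stood at 10.2 ± 0.690 RPKM in toc1-21 prr5-1 and 10.00 ± 1.88 RPKM in Col-0 (SD, n = 3 each, limma adjusted p = 0.903), and 2083 bases with a long noncoding RNA that the files do not list. PIF1 shares 334 bases with AT2G20170 in the same way, which was at 0.971 ± 0.495 and 0.820 ± 0.227 RPKM.

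PIF8, described as a repressor of phytochrome A responses in far-red light, was the most abundant member in both genotypes. It had 21.3, 19.6 and 19.8 RPKM in toc1-21 prr5-1, against 19.4, 18.5 and 19.8 RPKM in Col-0, and averaged 20.2 ± 0.935 and 19.3 ± 0.669 RPKM (SD, n = 3 each). The genotypes overlapped, and the log2 fold change of 0.06 had a 95% interval of -0.13 to 0.26 (limma adjusted p = 0.746). The interval holds small differences in either direction.

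**Figure D3:**
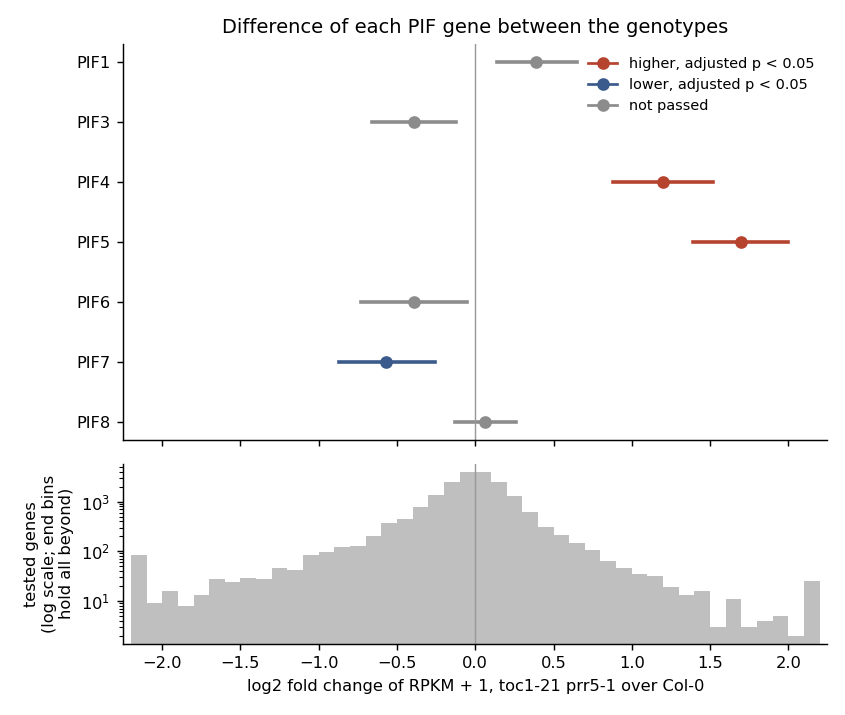
Upper panel, log2 fold change of RPKM + 1 for each PIF gene, toc1-21 prr5-1 over Col-0, with its 95% interval from limma, in red or blue for genes past the adjusted p of 0.05 and in grey for the others; lower panel, the same quantity for all 19710 tested genes as a histogram with a log axis of counts. PIF5 at 1.70 and PIF4 at 1.20 stand to the high side, PIF7 at -0.57 to the low side, and the interval of PIF8 alone spans 0.

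The order of the members by level differed between the genotypes. In toc1-21 prr5-1 it ran PIF8, PIF5, PIF1, PIF3, PIF4, PIF6 and PIF7 from high to low, and only PIF5 and PIF1 were neighbours whose ranges overlapped. In Col-0 it ran PIF8, PIF3, PIF1, PIF6, PIF5, PIF7 and PIF4, with overlapping ranges between PIF6 and PIF5 and between PIF5 and PIF7. By their mean over the 6 libraries, PIF8 was above 64.8% of the tested genes, PIF3, PIF1 and PIF5 above 48.4%, 45% and 38.5%, PIF4 and PIF6 each above 17.2%, and PIF7 above 11.7%. PIF5 stood above PIF1 and PIF3 in the double mutant and below both in the wild type, and PIF4, the lowest member in the wild type, stood above PIF6 and PIF7 in the double mutant.

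The summed level of the 7 members was 64.3, 65.0 and 69.1 RPKM in toc1-21 prr5-1 and 58.6, 49.9 and 55.1 RPKM in Col-0. All double-mutant sums were above all wild-type sums, at 66.2 ± 2.58 against 54.5 ± 4.36 RPKM (SD, n = 3 each). PIF5 made up 20.6% ± 1.64 of the sum in toc1-21 prr5-1 and 6.47% ± 1.03 in Col-0, and PIF4 7.99% ± 0.417 and 3.21% ± 0.509. PIF3 made up 15.2% ± 0.78 in toc1-21 prr5-1 and 24.8% ± 1.98 in Col-0, and PIF7 2.79% ± 0.357 and 5.90% ± 0.414. Ratios within a library do not depend on the scaling between libraries, and 4 of them were computed. PIF4 over PIF7 was at 2.91 ± 0.481 in toc1-21 prr5-1 and 0.548 ± 0.111 in Col-0 (5.30-fold). PIF5 over PIF3 was at 1.36 ± 0.159 and 0.262 ± 0.0440 (5.19-fold). These differed most among the 4 ratios computed. Ratios of other pairs were not computed, and that of PIF5 over PIF7 differs more by the levels given above.

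**Figure D4:**
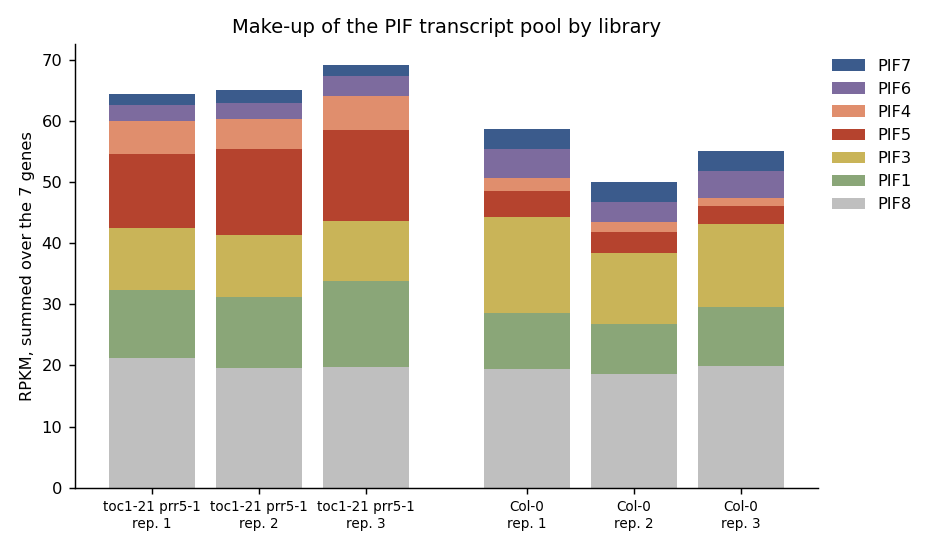
Stacked bars of the RPKM of the 7 PIF genes in each library, toc1-21 prr5-1 on the left and Col-0 on the right, each bar summing to the family's level in that library. The sums run from 64.3 to 69.1 RPKM in toc1-21 prr5-1 and from 49.9 to 58.6 RPKM in Col-0, and the PIF5 segment is the one that differs most in height.

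The genes whose pattern over the 6 libraries was most like that of a called PIF were found as those with the smallest root mean square difference of centred log2(RPKM + 1) values, among 18030 genes with a mean of at least 2 RPKM. For PIF4 the 5 closest were AT5G48490, AT1G18810, MGT1, ACX5 and AT3G12040, at differences of 0.0633 to 0.106. For PIF5 they were COL5, AT1G72030, AT3G26460, AT3G16800 and AT1G73480, at 0.104 to 0.140, and for PIF7 AT3G17940, AT4G36750, AT1G72250, CRK19 and AT3G27400, at 0.0253 to 0.0418. PIF5 ranked 152 of 18030 in likeness to PIF4, and PIF4 ranked 32 in likeness to PIF5. The measure rests on 6 libraries that fall into 2 genotypes, so any gene with a change of like size comes close.

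The pathway around the PIFs was read from 7 lists of known relatives, receptors, partners and targets, which hold 71 genes in all. Of these, 63 were tested, 14 rose, 5 fell and 44 did not pass, which is 30.2% called against 10.6% over all tested genes. No test of the lists as such was made. The clock factors that act on PIF genes had the largest share, with 3 of 7 tested genes higher and 3 lower. LHY and PRR7 are among the higher ones, so the filter itself favoured this share.

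Repressors of PIF4 and PIF5 transcription lay on both sides, with evening complex genes among those that fell and pseudo-response regulators among those that rose. ELF4, a subunit of the evening complex, had 38.2 ± 3.16 RPKM in toc1-21 prr5-1 and 80.0 ± 8.94 RPKM in Col-0 (SD, n = 3 each; log2 fold change -1.05, limma adjusted p = 0.000129). BOA, a homologue of LUX, fell by 0.76 on the log2(RPKM + 1) scale (limma adjusted p = 0.00146), and ELF3, the scaffold of the complex and also an inhibitor of PIF4 protein, fell by 0.31 (limma adjusted p = 0.0470). LUX itself, at 5.38 ± 1.54 and 7.16 ± 0.867 RPKM (SD, n = 3 each), missed the threshold (limma adjusted p = 0.267). The MYB factor LHY and the pseudo-response regulators PRR3 and PRR7 rose, by 1.95, 1.07 and 1.20 on the log2(RPKM + 1) scale. LHY and PRR7 were below 1 RPKM in every Col-0 library, so both passed the filter only through the toc1-21 prr5-1 libraries. PRR9 and CCA1 were below the filter.

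Among the receptors, 1 of 5 phytochrome genes was called, or 20%, against 10.6% over all tested genes. PHYD, a close relative of PHYB, fell to 2.73 ± 0.159 RPKM in toc1-21 prr5-1, against 5.94 ± 0.488 RPKM in Col-0 (SD, n = 3 each, log2 fold change -0.89, limma adjusted p = 0.00118). PHYA, PHYB, PHYC and PHYE did not pass, with log2 fold changes between -0.20 and 0.04. Of the 16 tested kinases and ubiquitin ligase components that act on PIF proteins, 2 rose and 0 fell, a share of 12.5% that is near the 10.6% called over all tested genes. The 2 genes were SPA1, at a log2 difference of 0.53 (limma adjusted p = 0.00519), and SPA3, at 0.45 (limma adjusted p = 0.0174), which encode partners of the COP1 ligase. SPA2, SPA4 and COP1 did not pass, at log2 differences of 0.07, 0.18 and 0.09.

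Of 9 tested genes for proteins that bind PIFs and keep them from DNA, 2 were higher and 1, ELF3, was lower. That is 33.3% called, against 10.6% over all tested genes. HFR1, an atypical bHLH protein that pairs with PIFs and is itself a PIF target, rose to 22.7 ± 1.33 RPKM in toc1-21 prr5-1, against 9.90 ± 1.23 RPKM in Col-0 (SD, n = 3 each, log2 fold change 1.13, limma adjusted p = 0.000121). PAR2 rose to 37.8 ± 4.12 RPKM, against 25.4 ± 3.57 RPKM in Col-0 (SD, n = 3 each, log2 fold change 0.56, limma adjusted p = 0.0136). The DELLA genes, whose products hold PIFs back when gibberellin is low, had 0 of 5 called by limma or by limma-voom, and 0 with an unadjusted p under 0.05. Among the 4 tested bHLH genes closest to the PIFs, 50% were called. HFR1 was higher, and ALC, a fruit opening factor, fell by 0.56 on the log2(RPKM + 1) scale (limma adjusted p = 0.0260). PIL1, also known as PIF2 and outside the 7 members, was too low to be tested, at 1.31 ± 0.499 RPKM in toc1-21 prr5-1 and 0.608 ± 0.178 RPKM in Col-0 (SD, n = 3 each).

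Of 17 tested genes that PIFs are known to induce, 4 rose and 0 fell. That is 23.5% called, against 10.6% over all tested genes. The median log2 fold change of the list was 0.15, against -0.01 over all tested genes. The genes that rose were HFR1, PAR2, BBX28 and IAA29. BBX28, a B-box factor, had 2.15 ± 0.529 RPKM in toc1-21 prr5-1 and 0.120 ± 0.0974 RPKM in Col-0 (SD, n = 3 each, log2 fold change 1.48, limma adjusted p = 0.000783). The BBX28 values rest on 38, 81 and 55 reads in toc1-21 prr5-1 and on 4, 1 and 2 reads in Col-0. BBX28 was below 1 RPKM in every Col-0 library, so it passed the filter only through the toc1-21 prr5-1 libraries. IAA29, an auxin-response repressor, had 5.53 ± 0.361 and 2.79 ± 0.253 RPKM (SD, n = 3 each, log2 fold change 0.79, limma adjusted p = 0.00280). The 13 others did not pass, with log2 fold changes from -0.30 for ST2A to 0.62 for ATHB2.

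Of 10 tested genes listed as repressed by PIFs in darkness, mostly of chlorophyll synthesis and its control, 5 rose and 0 fell. That is 50% called, against 10.6% over all tested genes. The median log2 fold change of the list was 0.55, against -0.01 over all tested genes. PSY, GLK1, CHLD, PORC and LHCA1 did not pass, with log2 fold changes between -0.00 and 0.16. CAO, chlorophyllide a oxygenase, had 34.2 ± 2.02 RPKM in toc1-21 prr5-1 and 5.28 ± 1.28 RPKM in Col-0 (SD, n = 3 each, log2 fold change 2.51, limma adjusted p = 4.11e-06). CHLH, a subunit of magnesium chelatase, had a log2 fold change of 2.19, PORB, a protochlorophyllide oxidoreductase, of 1.30, HEMA1, which starts tetrapyrrole synthesis, of 1.00, and GLK2, an activator of chloroplast genes, of 0.94. Their limma adjusted p ranged from 2.53e-07 to 0.000154. The seedlings grew in long days, so this list, drawn from work on dark-grown seedlings, is a label for the genes and does not say that PIFs repressed them here. The label is uncertain for PORB and PORC, since PIF1 is also described as an activator of POR genes.

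**Figure D5:**
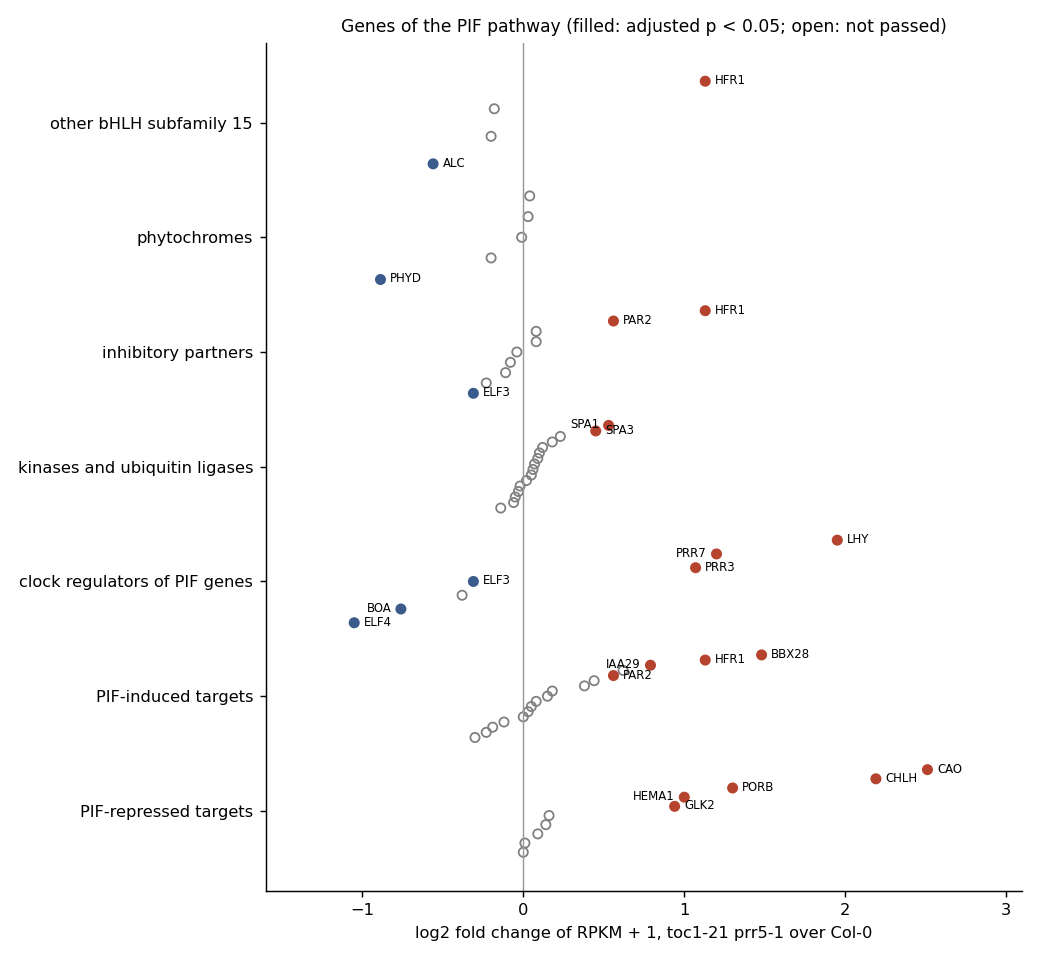
Log2 fold change, toc1-21 prr5-1 over Col-0, of each tested gene in 7 lists around the PIFs, 1 row a list, with genes past the adjusted p of 0.05 filled and named and the others open; height within a row only spreads the points. Called genes among the PIF-induced and the PIF-repressed targets all lie above 0, while called clock regulators lie on both sides.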

How the data were processed

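Whole-seedling RNA of 6 samples was sequenced from libraries of a directional kit, per the labels' protocols. The authors deposited 1 file per library with RPKM values for 33602 genes, per the file headers. TopHat2, TopHat and edgeR with the TAIR10 build are named per the submitters' processing notes; no source used here gives the counter or its strand setting.

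Whole reads behind the RPKM values were recovered within 0.001 for all 25139 genes above 0, at the smallest gene length that made them whole. RPKM values are no counts, so genes were tested with limma 3.58.1 (R 4.3.3, mean-variance trend) on log2(RPKM + 1), keeping those that reached 1 RPKM in at least 3 libraries, with Benjamini-Hochberg adjustment over 19710 genes. The pseudocount understates changes of low genes. The test was checked on simulated data. The PIF5 to PIF4 ratio used an exact permutation test (scipy 1.17.1), and the other ratios were not tested. Alternatives were other pseudocounts, filters, scaling, limma without the trend, limma-voom on recovered reads, a replicate block and each library left out.

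Positions, promoters and neighbours came from the RefSeq TAIR10.1 assembly by locus, which matched 97.7% of loci; no coordinates were converted. Named genes are the 7 members, TOC1 and PRR5, up to 6 called genes per list by adjusted p (the 2 most abundant where none was called), and for each called member the 5 genes most alike; other named genes, such as LUX, PIL1, the uncalled list members and the neighbours, were named after their values were seen. Members and lists were chosen with earlier results of these data known. Depths were 14617043 to 26792712 reads.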

Additional observations from a re-analysis of the deposited data

How the results depend on the processing

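PIF5 kept its call in 15 of 15 alternatives and PIF4 in 14 of 14, with log2 fold changes of 1.13 to 1.99 and of 0.61 to 1.62. PIF6 and PIF8 passed in none. A filter of 5 RPKM removed PIF4, PIF6 and PIF7, so these were not tested there. PIF7 passed in the 8 alternatives with all libraries (adjusted p 0.00718 to 0.0498) and in none of the 6 that left out 1 library (0.0525 to 0.110). PIF1 passed with median-ratio scaling (adjusted p = 0.0489) and limma-voom (0.0458), and had 0.0544 to 0.194 with 1 library left out. PIF3 passed with limma-voom (0.0417), and its adjusted p ran from 0.0194 to 0.266 with 1 library left out. No member changed direction; the causes were not tested. The genes called over the whole table numbered 2080, and 1222 to 2085 with 1 library left out, 1222 without Col-0 replicate 1, 1294 without toc1-21 prr5-1 replicate 1 and 1313 without toc1-21 prr5-1 replicate 2. Pathway genes called numbered 19, and 13 to 20 with 1 library left out. The deviations of same-numbered libraries from their group means had correlations of -0.03, 0.15 and 0.04, and those of other pairs -0.15 to 0.11. With 3 libraries a group, these values cannot show whether the numbers mark shared batches. With the replicate block 2114 genes were called and PIF7 had a limma adjusted p of 0.0498. The PIF5 to PIF4 ratio difference was 1.21-fold to 1.37-fold with 1 library left out and 1.42-fold on RPKM + 1. The fewest reads per library were 47 for PIF4 and 51 for PIF7.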
